A study of Homo sapiens with 8 samples.

Results

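The nuclear genes that encode the structural subunits of respiratory chain complexes I to V were followed in 2 human colorectal cancer lines after knockdown of PRDX2, the gene of the cytosolic peroxidase peroxiredoxin II. Members were chosen by gene symbol alone (NDUFA, NDUFB, NDUFC, NDUFS and NDUFV genes, SDHA to SDHD, CYC1, and symbols beginning with UQCR, COX4 to COX8 or ATP5), which matched 93 of the 25192 genes listed. Of these, 86 held at least 10 expected counts in at least 2 of the 8 libraries. They comprised 37 genes of complex I, 4 of complex II, 10 of complex III, 14 of complex IV, 15 of complex V and 6 genes that carry such a symbol without being subunits. HT29 cells (McCoy's 5A medium) and SW480 cells (RPMI1840 medium), both of which express truncated APC, received a control siRNA against firefly luciferase or a PRDX2 siRNA for 36 h, and each of the 4 groups held 2 libraries. Line and medium cannot be told apart, and since nothing in the labels says that the duplicates came from separate cultures, the p-values measure only the spread between these libraries.

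The respiratory chain sits in the inner mitochondrial membrane. Complexes I (NADH dehydrogenase) and II (succinate dehydrogenase) pass electrons to coenzyme Q, complex III (cytochrome bc1) hands them to cytochrome c, complex IV (cytochrome c oxidase) reduces oxygen, and complex V (ATP synthase) uses the resulting proton gradient to make ATP. Each complex except the second also contains subunits encoded by mitochondrial DNA, whose genes were not analysed here. Core subunits carry the redox centres or catalytic sites, whereas accessory subunits assist assembly and stability, and many nuclear subunit genes carry sites for the factors NRF1, GABP (an ETS protein), YY1, ERR or CREB near their start.

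Promoters of the members were read from RefSeq (GRCh38.p14) as windows of 250 bases before to 50 bases after the start. Windows were found for 68 of the 86 members, 66 of them accepted subunits or factors of the complexes. The NRF1-type letters GCGCANGCG lay on either strand of 21 of the 66 windows (31.8%), against 8.0% of all 27305 promoters and 14.2% of the promoters of genes expressed in these libraries. ETS-type letters CCGGAAG were held by 28.8% of the member windows (10.7% of all promoters, 18.3% of expressed genes), YY1-type letters AAGATGGC by 16.7% (3.0% and 5.2%), ERR-type letters AAGGTCA by 12.1% (4.0% and 2.6%) and CREB-type letters TGACGTCA by 7.6% (2.0% and 3.1%). Both strands were searched for all 5 patterns, none of which contains another. The sequences printed here are the 250 bases upstream of the start, 5′ to 3′, with matches in capitals, and a match that runs past the start is left in lower case. NDUFS6 at chr5:1801157-1801406 (+ strand), COX8A at chr11:63974370-63974619 (+ strand), NDUFB4 at chr3:120596086-120596335 (+ strand) and ATP5O at chr21:33915805-33916054 (- strand) are shown as members with a match whose transcripts fell in HT29. SDHA at chr5:218070-218319 (+ strand) and UQCR11 at chr19:1605463-1605712 (- strand) are shown for their repeated matches.
NDUFS6: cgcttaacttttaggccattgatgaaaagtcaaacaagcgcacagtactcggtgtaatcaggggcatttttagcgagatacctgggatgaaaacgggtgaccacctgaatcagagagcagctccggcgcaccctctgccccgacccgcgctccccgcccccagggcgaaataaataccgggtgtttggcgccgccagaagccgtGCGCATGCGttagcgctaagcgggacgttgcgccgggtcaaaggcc
COX8A: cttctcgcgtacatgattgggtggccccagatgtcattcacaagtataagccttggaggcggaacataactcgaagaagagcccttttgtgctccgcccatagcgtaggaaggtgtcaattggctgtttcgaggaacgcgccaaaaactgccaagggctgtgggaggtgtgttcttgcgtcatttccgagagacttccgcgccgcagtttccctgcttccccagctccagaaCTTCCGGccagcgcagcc
NDUFB4: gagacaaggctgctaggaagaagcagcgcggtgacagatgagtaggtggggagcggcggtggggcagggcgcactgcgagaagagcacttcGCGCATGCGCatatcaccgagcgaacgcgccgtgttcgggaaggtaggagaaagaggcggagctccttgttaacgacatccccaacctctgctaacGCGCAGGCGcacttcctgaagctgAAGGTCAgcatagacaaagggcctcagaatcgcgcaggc
ATP5O: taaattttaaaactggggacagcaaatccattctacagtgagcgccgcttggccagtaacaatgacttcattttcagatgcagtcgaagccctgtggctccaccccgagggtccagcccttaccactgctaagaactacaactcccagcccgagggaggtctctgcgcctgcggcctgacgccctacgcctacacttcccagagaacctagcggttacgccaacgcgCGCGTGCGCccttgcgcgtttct
SDHA: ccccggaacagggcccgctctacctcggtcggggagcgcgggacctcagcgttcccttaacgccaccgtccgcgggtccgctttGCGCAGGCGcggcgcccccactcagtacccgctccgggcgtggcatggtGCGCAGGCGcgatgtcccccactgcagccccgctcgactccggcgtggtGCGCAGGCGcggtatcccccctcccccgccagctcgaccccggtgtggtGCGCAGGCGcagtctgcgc
UQCR11: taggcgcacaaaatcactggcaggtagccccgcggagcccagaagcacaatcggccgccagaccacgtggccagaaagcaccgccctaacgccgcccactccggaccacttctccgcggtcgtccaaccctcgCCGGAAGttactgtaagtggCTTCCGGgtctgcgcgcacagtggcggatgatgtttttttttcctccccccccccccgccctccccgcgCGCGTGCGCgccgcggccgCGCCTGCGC
NDUFS6 held an NRF1-type match beginning 46 bases before the start, NDUFB4 held a pair of them with an ERR-type match between the second and the start, and COX8A held an ETS-type match beginning 18 bases before it. The SDHA promoter held 4 NRF1-type matches spaced 49 bases apart. Of the 11 members that fell in HT29 and had a window, 4 held NRF1-type letters (ATP5G2, ATP5O, NDUFB4 and NDUFS6) and 3 held ERR-type letters (COX8A, NDUFB4 and NDUFS6), compared with 17 and 5 of the other 55. ETS-type letters were held by 2 of the 11 and 17 of the 55, YY1-type by 1 and 10, and CREB-type by 0 and 5. Any of the 5 patterns was held by 6 of the 11 and by 37 of the 55.

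Levels were read in TPM (expected counts per transcript length, scaled to the same total in each library). The 86 members took between 2.21% and 2.46% of all TPM, and 61 of the 80 accepted members exceeded 100 TPM in HT29 under control siRNA, as did 63 in SW480. ATP5E, the epsilon subunit of the F1 part of ATP synthase, was the most abundant in each group, with a mean of 1775 TPM in HT29 and 1683 TPM in SW480 control libraries. The most abundant gene of each other complex, by mean TPM over all libraries, was COX6B1 (866.9 TPM, complex IV), NDUFB9 (732.5 TPM, complex I), UQCRH (442.0 TPM, complex III) and SDHA (270.3 TPM, complex II). TPM of short transcripts rests on the effective length, which in these files was 51.7 to 59.3 nt below the transcript length although the labels give an insert of about 300 bp. How far this shifted levels between short and long genes was not tested.

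The isoforms of complex IV that are typical of lung, muscle or testis were almost absent. COX4I2, COX6A2, COX7B2 and COX8C had 0 counts in all 8 libraries, which allows up to 3 counts, equal to 0.295 to 0.339 CPM, in each, and COX7A1 had 1 count in 1 library. Their common counterparts ranged from COX7A2 (mean of 168.8 TPM) through COX6A1 (304.7 TPM), COX4I1 (341.7 TPM) and COX8A (510.3 TPM) to COX7B (794.3 TPM). COX6B2, the testis counterpart of COX6B1, reached 0.41 to 1.52 TPM in HT29 and 2.36 to 4.22 TPM in SW480. NDUFA4L2, the hypoxia-induced relative of the complex IV subunit NDUFA4, stood at 6.95 and 8.04 TPM in HT29 control libraries and at 0.89 and 1.63 TPM in SW480 control libraries.

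Knockdown and library quality were then checked. PRDX2 measured 148.1 and 153.8 CPM (counts scaled to a common library size by edgeR's TMM) in HT29 control libraries and 82.4 and 83.2 CPM after PRDX2 siRNA, a fall to 0.549 of control (edgeR quasi-likelihood test, adjusted p = 1.15e-09). In SW480 it measured 209.1 and 246.1 CPM against 69.5 and 70.7 CPM, a fall to 0.308 of control (edgeR adjusted p = 0.000618). Libraries held between 8857442 and 10164137 expected counts. EPCAM, KRT8 and KRT18 of colon epithelium were abundant in all 8, whereas CDH1 was at 253.49 TPM or more in HT29 and at 14.71 TPM or less in SW480, and KRT20 at 546.01 TPM or more in HT29 and at 1.34 TPM or less in SW480. VIL1 was at 126.41 TPM or more in HT29 and at 50.81 TPM or less in SW480. CDX2 lay the other way, at 8.23 to 13.67 TPM in HT29 and 18.82 to 31.47 TPM in SW480. CDX1 was at 2.55 TPM or less in all 8. In HT29 KRT20 stood at 558.85 and 546.01 TPM in controls and at 769.83 and 747.64 TPM after PRDX2 siRNA, whereas KRT18 went from 8110.4 and 8099.61 to 7154.26 and 7035.69 TPM and KRT8 from 6446.83 and 6558.86 to 6162.51 and 6186.74 TPM. CDX2 went from 8.58 and 8.23 to 13.67 and 12.62 TPM in HT29 and from 18.82 and 22.25 to 27.99 and 31.47 TPM in SW480. In SW480 KRT18 went from 5458.88 and 5182.05 to 4401.19 and 4345.47 TPM. The part of these epithelial markers in the results was not tested. The leukocyte markers PTPRC and CD3E reached at most 0.16 TPM, and the fibroblast collagen COL1A1 at most 9.33 TPM. The 2 control libraries of SW480 differed from each other by more than the other duplicates did. The median absolute difference between duplicates over the members was 0.211 on the log2 scale for the SW480 controls, against 0.05 to 0.07 in the other groups, and the ratio of library 2 to library 1 rose with the GC content of the transcript (Spearman rho 0.66 over members and 0.69 over 14037 genes, across genes of 1 pair of libraries).

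In HT29, PRDX2 knockdown lowered 13 of 85 tested members and raised none at an adjusted p of 0.05 (edgeR quasi-likelihood test, Benjamini-Hochberg over 12961 genes). Over all genes tested, 9.82% were called lower and 7.76% higher. The falls were small, with log2 fold changes between -0.38 and -0.16, and involved accessory subunits of complexes I (4 genes), III (2 genes) and IV (4 genes) and 3 subunits of complex V. No gene of complex II and none of the 13 core subunits of complexes I to III was called, beside 17.6% of all genes called in either direction. Over the 85 members the median log2 fold change was -0.05, with 63 below and 22 above 0, against a median of 0.00 over all genes. The fit of all 8 libraries together called 0 members in HT29, beside 1.25% of all genes. In that fit 9 members had an unadjusted p under 0.05 (10.5%, beside 13.0% of all genes). With DESeq2 the called share was 3.53% of the members and 6.58% of all genes. DESeq2 called 3 of the 13 (ATP5E, ATP5G2 and NDUFS6), and 7 members were called without PRDX2 siRNA library 1, none of them higher. NDUFS6, ATP5E, ATP5G2, COX8A and UQCRH were called whichever library was left out.

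**Figure D1:**
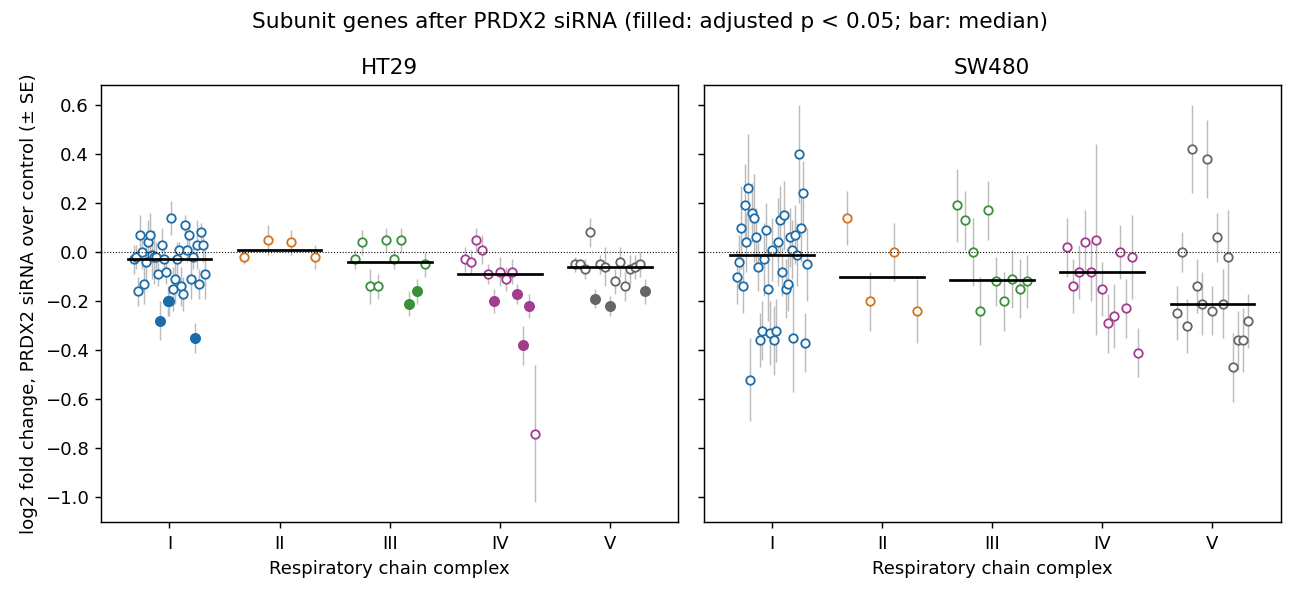
Log2 fold change after PRDX2 siRNA (y axis, ± SE, 2 libraries per group) of each tested accepted member by complex (x axis) in HT29 and SW480, with filled points past an adjusted p of 0.05 and a bar at the median. All 13 filled points are in HT29 and below 0, and the median SE is 0.06 in HT29 and 0.12 in SW480.

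NDUFS6, a zinc-binding accessory subunit of complex I, had the smallest p of the members. It measured 85.7 and 79.7 CPM in HT29 control libraries and 66.5 and 63.6 CPM after PRDX2 siRNA. Both knockdown libraries lay below both controls (log2 fold change -0.35 ± 0.06 SE, edgeR adjusted p = 0.000398). In SW480 the same gene stood at 71.0 and 87.0 CPM under control siRNA and at 80.4 and 77.0 CPM after knockdown, so that the groups overlapped.

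ATP5E, whose product belongs to the central stalk of ATP synthase, measured 329.5 and 312.4 CPM in HT29 controls and 286.3 and 277.6 CPM after knockdown (-0.19 ± 0.04, edgeR adjusted p = 0.00127). Its retrocopy ATP5EP2 may share reads with it, and the summed CPM of the pair changed by -0.18 on the log2 scale. ATP5G2, 1 of 3 genes that encode the same mature c subunit of the membrane rotor, measured 161.1 and 158.9 CPM against 137.4 and 137.0 CPM (-0.22 ± 0.04, edgeR adjusted p = 0.00151). Neither ATP5E nor ATP5G2 overlapped between groups. ATP5O, which encodes the stalk subunit that confers oligomycin sensitivity, was the other complex V gene called lower (-0.16 ± 0.05, edgeR adjusted p = 0.041). It was less stable, and DESeq2 did not call it (DESeq2 adjusted p = 0.32).

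Within complex IV, COX8A fell from 112.9 and 144.6 CPM to 98.8 and 99.2 CPM (-0.38 ± 0.08, edgeR adjusted p = 0.00272), and its size rested on the controls, being -0.19 without control library 2 and -0.55 without control library 1. NDUFA4 went from 97.8 and 92.6 CPM to 83.6 and 79.2 CPM (-0.22 ± 0.05, edgeR adjusted p = 0.00641). All of the complex IV genes called encode small subunits around the catalytic centre. No catalytic subunit of complex IV was among the members, so none could be called. COX7C went from 153.5 and 156.4 CPM to 135.8 and 140.5 CPM (-0.17 ± 0.04, edgeR adjusted p = 0.0142), and COX6C from 107.5 and 104.0 CPM to 96.3 and 88.2 CPM (-0.20 ± 0.05, edgeR adjusted p = 0.0159). In each of the 4 genes the knockdown libraries lay below both controls. NDUFA4L2 had a larger log2 fold change of -0.74 ± 0.28, at 3.69 and 4.28 CPM against 1.76 and 3.05 CPM, and did not pass (edgeR adjusted p = 0.0843).

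UQCRH, the hinge protein of complex III that docks cytochrome c, measured 114.9 and 119.8 CPM in controls and 101.5 and 101.3 CPM after knockdown (-0.21 ± 0.05, edgeR adjusted p = 0.0056). UQCRHL is a near-identical retrocopy of UQCRH, so the counting could split reads between them and the value of each is uncertain. It also passed (-0.16 ± 0.05, edgeR adjusted p = 0.0315), and the summed CPM of the pair changed by -0.18 on the log2 scale. The remaining called members, NDUFB1 (-0.28), NDUFB3 (-0.20) and NDUFB4 (-0.20), belong to the membrane arm of complex I.

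**Figure D2:**
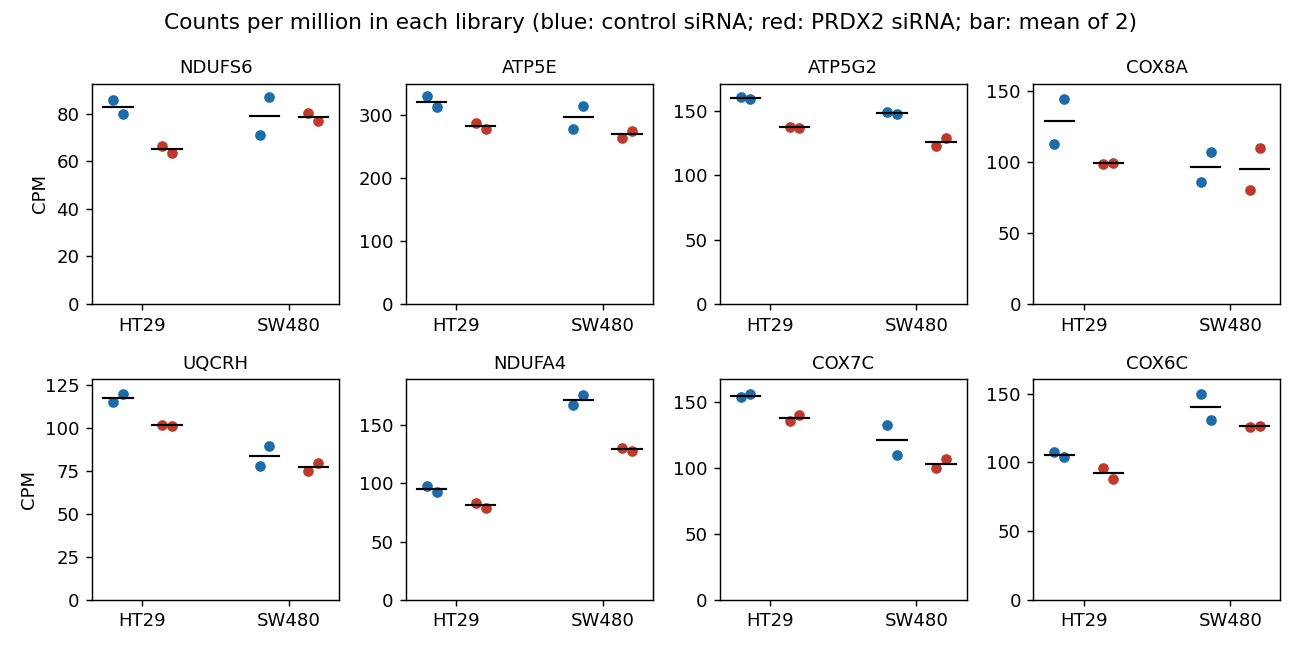
TMM-scaled CPM (y axis, from 0) in each library for the 8 members with the smallest p in HT29, by line (x axis), with blue points for control siRNA, red points for PRDX2 siRNA and a bar at the mean of 2 libraries. The HT29 groups do not overlap for these 8 genes, which were picked for their small p in the same libraries. In SW480 the groups overlap for NDUFS6, COX8A and UQCRH.

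None of the core subunits passed in HT29. NDUFV1, which binds FMN and receives electrons from NADH, measured 129.1 and 130.6 CPM in controls and 137.7 and 136.1 CPM after knockdown (0.08 ± 0.04, edgeR adjusted p = 0.275). NDUFS1, the largest iron-sulphur subunit of complex I, measured 147.4 and 145.3 CPM against 156.8 and 159.5 CPM (0.11 ± 0.04, edgeR adjusted p = 0.0851). Both knockdown libraries were above both controls for NDUFV1 and NDUFS1, but neither passed. NDUFS8, an iron-sulphur subunit of complex I, lay the other way, at 73.98 and 76.59 CPM in controls and 66.41 and 70.99 CPM after knockdown (-0.13 ± 0.06, edgeR adjusted p = 0.122). The log2 fold changes of the 4 succinate dehydrogenase genes ranged from -0.02 (SDHA and SDHD) to 0.05 (SDHB), CYC1 (cytochrome c1) stood at -0.03 and UQCRFS1 (the Rieske protein) at 0.05, with an SE of at most 0.06. ATP5A1 and ATP5B, the alpha and catalytic beta subunits of ATP synthase, each had a log2 fold change of -0.05. Of the 13 core subunits of complexes I to III, 9 were above 0 and 4 below, and 2 (NDUFS1 and NDUFS8) had an unadjusted p under 0.05. With another test and another scaling together, limma on log2(TPM + 1) called 4 members higher (NDUFS1, NDUFV1, COX5B and NDUFB5) and 6 lower in HT29, with a median of 0.01 over members and 0.06 over all genes, of which it called 9.66% higher and 4.23% lower.

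The called members had short transcripts, with a median length of 546 nt against 901 nt for the 72 tested members that were not called. By length, 7 of 23 members of up to 600 nt, 5 of 28 between 600 and 1000 nt, and 1 of 34 longer members (NDUFA4) were called lower. Genes outside the set were counted in the same classes where they had at least 100 counts on average. Of 81 such genes of up to 600 nt, 53.1% were called lower and 2.47% higher, whereas 21.2% of 416 genes between 600 and 1000 nt and 10.6% of 9563 longer genes were called lower. The members' medians in the 3 length classes were -0.083, -0.065 and -0.034, and those of the other genes were -0.155, -0.07 and 0.01. Every core subunit had a transcript of 786 nt (NDUFS7) or longer, so the role and the length of members were not separated. The part of transcript length in the falls was not tested.

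In SW480 no member passed in either direction (edgeR, 85 members tested among 14112 genes), while 2.08% of all genes were called lower and 1.22% higher. At an unadjusted p under 0.05 there were 18 members (21.2%, beside 24.4% of all genes), DESeq2 called 1 (NDUFA4, lower) and limma on log2(TPM + 1) called 0. The median log2 fold change over members was -0.08, with 53 below and 32 above 0, against a median of 0.00 over all genes. Complex V had the lowest median of the complexes, -0.21 over 15 genes, and 9 of its members had an unadjusted p under 0.05, 7 of them below 0 and 2 above (ATP5D and ATP5G1).

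NDUFA4 came closest to the threshold in SW480, with 167.4 and 175.7 CPM in controls and 130.4 and 128.1 CPM after knockdown (-0.41 ± 0.10, edgeR adjusted p = 0.0679). ATP5J, the coupling factor subunit of the ATP synthase stalk, measured 139.5 and 107.2 CPM in controls and 91.1 and 86.9 CPM after knockdown (-0.47 ± 0.14, edgeR adjusted p = 0.0937). NDUFAB1, the mitochondrial acyl carrier protein that is also a subunit of complex I, measured 69.3 and 65.9 CPM against 52.5 and 52.6 CPM (-0.36 ± 0.11, edgeR adjusted p = 0.11). Knockdown libraries lay below both controls for these 3 genes. The gene with the largest positive log2 fold change was ATP5D, the delta subunit of F1, with 37.1 and 55.6 CPM in controls and 58.4 and 65.9 CPM after knockdown (0.42 ± 0.18, edgeR adjusted p = 0.197). ATP5J, NDUFAB1 and ATP5D were chosen after their values were seen.

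The SW480 values depended on the control library they were set against. Without control library 1, 22 members were called lower and 1 higher, and without control library 2, 33 were called lower and 16 higher, with the lone control assumed to vary like the other group. Over all genes the shares were 13.1% lower and 11.4% higher without control library 1, and without control library 2, of 13955 genes, 3734 were lower (26.8%) and 3630 higher. Between these choices 24 of 85 members changed sign. Called lower under both were 14 members, among them 7 of complex V (ATP5A1, ATP5C1, ATP5G2, ATP5J, ATP5J2, ATP5L and ATP5O), 6 of complex I (NDUFA5, NDUFAB1, NDUFB1, NDUFB3, NDUFB6 and NDUFV2) and NDUFA4 of complex IV, and none was called higher under both. The fitted log2 fold change over the members rose with GC content (Spearman rho 0.62 over 85 members, 0.54 over all genes tested, against 0.04 over the members in HT29). With an offset for GC content, 5 members were called lower (ATP5G2, ATP5J, ATP5J2, ATP5O and NDUFAB1), a share of 5.88% beside 8.45% lower over all genes. All 5 of them were also below 0 in HT29, as were 63 of all 85 members tested there. In that fit ATP5D had a log2 fold change of 0.01 ± 0.08 and NDUFA4 of -0.21 ± 0.10 (edgeR adjusted p = 0.19).

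**Figure D3:**
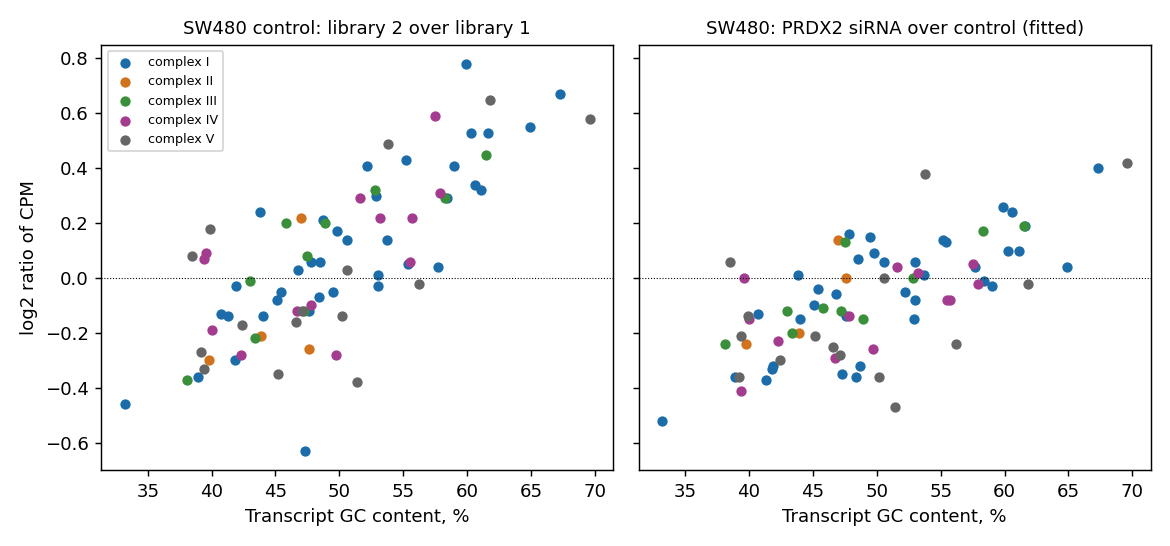
GC content of the transcript in % (x axis) for each tested accepted member, coloured by complex, against the log2 ratio of CPM between the SW480 control libraries (left, library 2 over library 1) and against the fitted log2 fold change after PRDX2 siRNA in SW480 (right). Both rise with GC content, with Spearman rho of 0.66 and 0.62 over the members.

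The response was compared between the lines in 1 model of all 8 libraries. No member passed for a difference in response (edgeR, 86 members tested among 14772 genes), with 0.508% of all genes called for a higher and 0.616% for a lower change in SW480. At an unadjusted p under 0.05 there were 10 members (11.6%, beside 19.2% of all genes), and DESeq2 and limma on log2(TPM + 1) called 0. The smallest unadjusted p was that of NDUFB5, a membrane-arm subunit of complex I, at a difference of -0.50. Of the 13 members that fell in HT29, 12 were below 0 in SW480 as well, from -0.41 to -0.01, NDUFB4 being at 0.01, and 5 had an unadjusted p under 0.05 there. Of the other members tested in both lines, 41 of 71 were below 0 in SW480. The share below 0 in SW480 among all genes that fell in HT29 was not computed. Without SW480 control library 1 or 2, NDUFS6 stood at -0.15 and 0.14, COX8A at -0.17 and 0.14 and NDUFB4 at -0.11 and 0.13. Without SW480 control library 1, 2 members were called for a different response, and without control library 2, 40 were (46.5%), beside 9.32% and 35.7% of all genes.

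Summed over its members, complex V had the same order of groups in both lines. Its summed TPM was 6264.3 and 6204.4 in HT29 controls and 6092.4 and 5994.1 after knockdown, a change of -3.07%. In SW480 it was 7968.1 and 7839.7 against 7548.7 and 7534.7, a change of -4.58%. Knockdown libraries were below both controls in each line. The larger part of the HT29 change was that of ATP5E, already called lower, whose mean went from 1775 to 1629 TPM. In TPM other members rose there, among them ATP5B, from 929.54 and 926.25 to 940.97 and 938.73 TPM. The direction for ATP5B depended on the scaling, its log2 fold change in TMM-scaled counts being -0.05. Complex IV changed by -3.26% in HT29, from 5300.1 and 5460.4 to 5203.9 and 5205.8, and by -1.23% in SW480, where the groups overlapped. Complex II stood at 755.6 and 751.6 in HT29 controls and at 806.7 and 772.8 after knockdown (4.8%) and overlapped in SW480 (-0.27%). The sums of complex I changed by 0.53% and 1.74% and those of complex III by -1.05% and 3.96%. No test was made on these sums, in which each gene counts by its TPM. Their baseline was not 0, since on the log2(TPM + 1) scale the median change over all genes tested was 0.06 in HT29 and 0.08 in SW480.

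The c subunit genes differed in their shares. ATP5G2 gave 60.2% and 57.8% of the summed TPM of ATP5G1, ATP5G2 and ATP5G3 in HT29 controls and 57.7% and 55.8% after knockdown. In SW480 it gave 49.6% and 44.3% in controls and 38.2% and 39.2% after knockdown, while ATP5G1 gave 23.9% and 30.2% in controls and 33.9% and 35.2% after knockdown. The SW480 groups did not overlap for either share, and the duplicates of the SW480 controls differed by more than those of any other group. UQCRH and UQCRHL kept shares near each other, UQCRH giving between 51.2% and 55.4% of the pair in all 8 libraries. A read-through transcript of ATP5J2 and PTCD1 had 173.43 expected counts in SW480 control library 1 and 0 in the other libraries, so that it was dropped by the filter.

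Between the lines under control siRNA, 50 of 86 members differed, 22 higher and 28 lower in SW480 (edgeR, 14346 genes tested). Over all genes tested, 35.7% were higher and 31.8% lower. With both the test and the scaling changed, limma on log2(TPM + 1) called 28 higher and 18 lower, beside 39.2% higher and 26.6% lower over all genes, and the median of all genes was 0.15 in place of 0.04. Of the complexes, IV had the most calls for its size (5 higher and 7 lower of 14) and II the fewest (SDHA alone, lower). Without HT29 control library 1 or 2, 27 and 28 members were called. The same control libraries enter the knockdown comparisons.

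NDUFA12, an accessory subunit of complex I, was highest in SW480 relative to HT29, at 87.4 and 80.4 CPM against 34.6 and 33.3 CPM (log2 fold change 1.30 ± 0.12, edgeR adjusted p = 1.97e-05). NDUFA8 followed at 48.6 and 53.5 CPM against 20.7 and 21.0 CPM (1.29 ± 0.13). NDUFV3, which flanks the NADH-binding module, stood at 44.1 and 58.5 CPM against 21.9 and 20.7 CPM (1.27 ± 0.17). ATP5O, which fell after knockdown in HT29, stood at 238.6 and 219.5 CPM against 99.2 and 106.0 CPM (1.16 ± 0.11). For each of these 4 genes both SW480 libraries exceeded both HT29 libraries.

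NDUFB9, the most abundant complex I gene in HT29, was the abundant member with the largest shift the other way, at 119.8 and 117.3 CPM in SW480 against 328.2 and 327.0 CPM in HT29 (-1.47 ± 0.10, edgeR adjusted p = 2.9e-06). SDHA, the flavoprotein of succinate dehydrogenase, stood at 182.2 and 212.8 CPM against 364.9 and 364.3 CPM (-0.88 ± 0.11). The 3 other complex II genes lay between -0.05 and 0.20 and did not pass. NDUFS5, an accessory subunit of complex I, was also lower in SW480 (-0.90 ± 0.10). NDUFA4L2 had the largest difference of all members, at 0.44 and 0.82 CPM in SW480 against 3.78 and 4.36 CPM in HT29 (-2.66 ± 0.37, edgeR adjusted p = 0.000244).

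Complexes I, III, IV and V each held members that were higher and members that were lower in SW480, and the members were set beside the other genes of their chromosome. The 3 members on chromosome 21 (ATP5J, ATP5O and NDUFV3) were all higher in SW480, at 1.11 to 1.27, and the median of the 128 other genes tested there was 0.64. On chromosome 8, NDUFB9 and CYC1 were lower, COX6C was higher and UQCRB did not pass, beside a median of 0.05 over 441 other genes. Of 6 members on chromosome 5, SDHA, NDUFS4 and COX7C were lower, NDUFA2 was higher (0.40) and NDUFS6 and UQCRQ did not pass, beside a median of 0.22 over 570 other genes. Over the 86 members, the log2 fold change followed the median of the other genes of the chromosome with a Spearman rho of 0.48 (a description across genes that share libraries). Of 10 members that differed by more than 2-fold, 7 had the sign of their chromosome's median. Copy number was not measured.

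**Figure D4:**
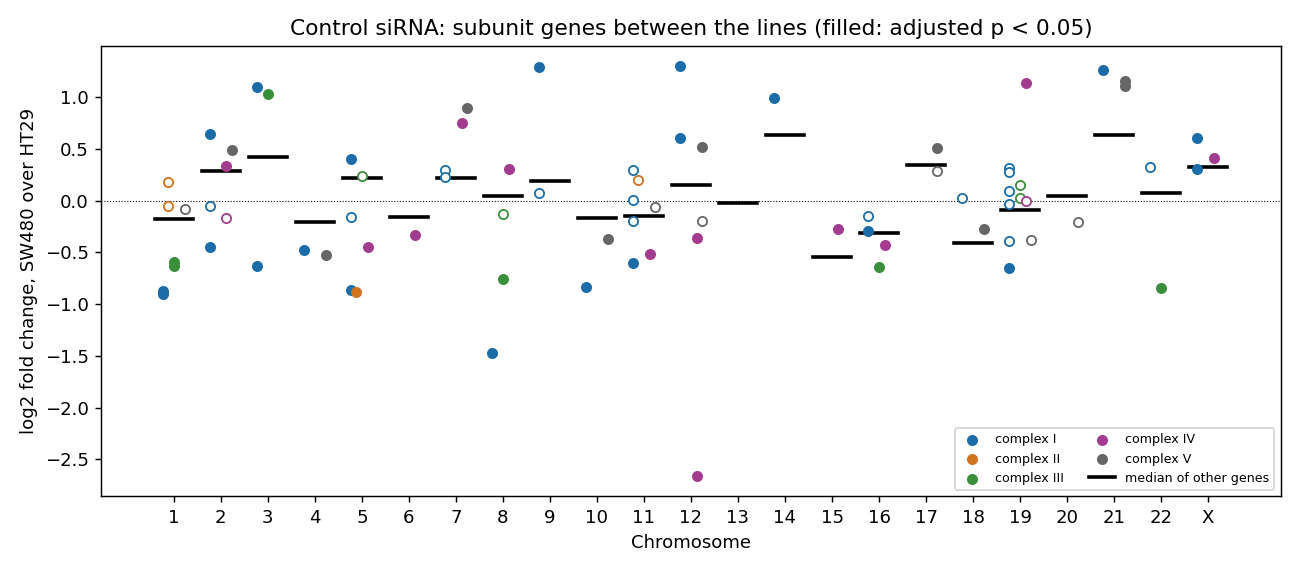
Log2 fold change of SW480 over HT29 under control siRNA (y axis) of each accepted member by chromosome (x axis), coloured by complex, with filled points past an adjusted p of 0.05 and a black line at the median of the other genes tested on that chromosome. The 3 members on chromosome 21 lie above a line at 0.64, and NDUFA4L2 on chromosome 12 is lowest at -2.66.

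Other genes of mitochondrial respiration were read from 5 lists. Over all genes 17.6% were called in HT29 and 3.3% in SW480. In HT29 the called share was 7.14% of complex I assembly factors, 6.45% of those of complexes II to V and 0.0% of biogenesis regulators. It was 11.8% of citric acid cycle genes and 18.2% of electron carriers and ADP/ATP carriers. Of 14 complex I assembly factors, FOXRED1 alone was called in HT29, rising from 37.76 and 39.23 CPM to 50.03 and 46.06 CPM (0.32 ± 0.07, edgeR adjusted p = 0.00391). Of 31 assembly factors of complexes II to V, 2 fell in HT29. COX15, which makes the haem A of complex IV, fell in both lines, from 71.4 and 72.6 CPM to 60.8 and 60.9 CPM in HT29 (-0.24 ± 0.06, edgeR adjusted p = 0.00553) and from 72.8 and 68.3 CPM to 41.8 and 45.2 CPM in SW480 (-0.70 ± 0.12, edgeR adjusted p = 0.022), where it was the only called gene of the 5 lists. MNF1, a complex III assembly factor now named UQCC2, fell in HT29 (-0.35 ± 0.09, edgeR adjusted p = 0.0123).

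None of 15 regulators of mitochondrial biogenesis was called in either line by edgeR, beside 17.6% of all genes in HT29 and 3.3% in SW480. At an unadjusted p under 0.05 there was 1 in HT29 and 0 in SW480, beside 30.2% and 24.4% of all genes. PPARGC1A was barely expressed (mean of 0.454 TPM), and NRF1 (0.10 ± 0.09 in HT29, 0.01 ± 0.15 in SW480), GABPA (-0.13 ± 0.09 and -0.18 ± 0.14), TFAM (0.07 ± 0.05 and -0.14 ± 0.13), ESRRA (-0.00 ± 0.05 and 0.11 ± 0.13) and PPARGC1B (-0.13 ± 0.17 and 0.19 ± 0.19) lay within 2 SE of 0. Of 17 genes of the citric acid cycle, IDH2 (-0.16 ± 0.04, edgeR adjusted p = 0.00984) and IDH3G (-0.19 ± 0.06, edgeR adjusted p = 0.0379) fell in HT29. Of 22 electron carriers and ADP/ATP carriers, 3 fell and 1 rose there. UCP2, an uncoupling protein relative of the inner membrane, fell from 215.5 and 204.7 CPM to 158.1 and 153.4 CPM (-0.43 ± 0.04, edgeR adjusted p = 1.22e-06), and CYCS, cytochrome c itself, also fell (-0.18 ± 0.05, edgeR adjusted p = 0.0108). The median log2 fold changes of the 5 lists in HT29 lay between -0.032 and 0.00, against -0.05 over the members.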

How the data were processed

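Polyadenylated RNA was sequenced as paired reads from HT29 and SW480 cells, 2 libraries per group. Per the study's methods, which describe HT29, the authors checked reads with FastQC, aligned them with MapSplice to hg19 and quantified refGene genes with RSEM. The deposited files give expected counts, TPM and FPKM per gene as RSEM wrote them; FPKM was not used. Expected counts, here called counts, were rounded. Libraries held 8857442 to 10164137 expected counts, so that 3 counts correspond to 0.295 to 0.339 CPM, and limits from counts cover counting error only.

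A gene entered a fit if 2 or more of its libraries held 10 counts or more, and was tested with edgeR 4.0.16 in R 4.3.3 (TMM, glmQLFit and glmQLFTest, Benjamini-Hochberg over all genes tested, threshold 0.05), each line fitted alone, and the difference of responses in 1 fit of all 8 libraries. SE is the log2 fold change divided by the square root of F. Where the libraries of 2 groups are said not to overlap, the share of all genes with such groups was not computed. Alternatives were DESeq2 1.42.0, RLE normalization, no count filter, limma 3.58.1 on log2 TPM after adding 1 or 0.1, a replicate block, a loess offset for GC content, and leaving out each library. The fits were tested on simulated data. GC content and positions came from GENCODE for GRCh37 and promoters from RefSeq. Named genes were the 8 members with the smallest p per knockdown comparison among those called, the 4 highest and 4 lowest between the lines with at least 5 CPM, isoform sets, the top gene per complex, core subunits, PRDX2, biogenesis regulators and the 2 smallest p per other list. NDUFA4L2, below 5 CPM, was named as an isoform, and some genes that the rules chose are not reported here. The members and lists were chosen with earlier results of these data known.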

Additional observations from a re-analysis of the deposited data

Results flagged for a closer look

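The response of PRDX2 itself differed between the lines. Its log2 fold change was -0.87 in HT29 and -1.7 in SW480, a difference of -0.84 that passed the edgeR test of the interaction (adjusted p = 0.0128), and both knockdown libraries were below both controls in each line. No member of complexes I to V differed by that test.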

How the results depend on the processing

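In HT29, edgeR called 13 members; DESeq2 called 3 (ATP5E, ATP5G2 and NDUFS6), the fit of all 8 libraries, which shares the wider spread of SW480, called 0, and leaving out 1 library gave 7 to 13, with 7 without PRDX2 siRNA library 1. Of all genes in HT29, DESeq2 called 6.58% and the fit of all 8 libraries 1.25%. The median over members in HT29 was 0.01 under limma on log2(TPM + 1) and 0.01 under limma on log2(TPM + 0.1), and -0.06 to -0.05 with 1 library left out. In SW480, where edgeR called 0, DESeq2 called 1, the fit of all 8 libraries 14, the GC offset 5, the GC offset with replicate block 16, and leaving out 1 library 0 to 49 (23 without control library 1, 49 without control library 2). The SW480 median of -0.08 was -0.07 in the fit of all 8 libraries, 0.01 under limma on log2(TPM + 1), 0.01 under limma on log2(TPM + 0.1), -0.04 with the GC offset, -0.04 with the GC offset and replicate block, and -0.09 to -0.05 with 1 library left out. Calls for a different response ranged from 0 to 40 with 1 library left out (2, NDUFB5 and NDUFC2-KCTD14, without SW480 control library 1, and 40 without library 2). Calls between the lines ranged from 27 to 70 with 1 library left out (27 and 28 without HT29 control library 1 and 2). In such fits the lone library is assumed to vary like the other groups. Without COX7A2L, a supercomplex factor, the mean summed TPM of complex IV was 5163.1 and 4994.2 in HT29 and 5418.7 and 5374.2 in SW480 (control and PRDX2 siRNA). Except where a value or the construction shows it, the cause was not tested.

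Nothing in the labels ties same-numbered libraries together, and with 2 numbers the data could not settle it: their deviations correlated at 0.031 in HT29, 0.065 in SW480 and 0.029 between the controls over all genes, and at 0.4, 0.256 and 0.367 over the members. With a replicate block, 17 members were called in HT29, 4 in SW480 (ATP5D higher; ATP5J, NDUFA4 and NDUFA5 lower), 0 for the difference and 50 between the lines.

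No log2 fold change of the called genes named by the rule turned its sign in the alternatives run. Of 208 such values in HT29, 155 kept their side of the threshold and 53 lost it. They cover the 8 members with the smallest p, PRDX2 and genes of the other lists. Of 26 in SW480, all from PRDX2 and COX15, 22 kept it. Of 16 for the difference, all from PRDX2, 10 did, and all 104 between the lines did. The other called members in HT29 were not counted there. Of 13 alternatives, ATP5O was called in 5, NDUFB4 and UQCRHL in 6, NDUFB3 in 8 and NDUFB1 in 9. With 2 libraries per group, the SE of 0.12 of a member in SW480 limits what could be called there.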
